A study of Mus musculus with 39 samples.

Results

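The genes described here are 45 members of the TGF-beta and BMP signalling system, chosen by name and not by their measured values: 3 TGF-beta ligands, 8 BMPs, 7 GDFs (myostatin included), 7 type I receptors, 4 type II receptors, the co-receptor Tgfbr3, 8 SMADs, 5 secreted antagonists and 2 latent TGF-beta binding proteins. All 45 were found by Ensembl identifier in both deposited count tables, among 21561 Ensembl genes that the tables share. Between 39 and 44 had enough reads to be tested, depending on the comparison, and the 4 not tested in P40 testis were Gdf6, Mstn, Nog and Grem1.

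TGF-beta family ligands are secreted as dimers and bring together type II and type I serine/threonine kinase receptors. TGF-betas, activins and myostatin lead to phosphorylation of SMAD2 and SMAD3, and many BMPs to that of SMAD1, SMAD5 and SMAD9. Both arms share SMAD4 on the way to the nucleus, while SMAD6 and SMAD7 restrain the receptors. In the testis the family is known from Sertoli and Leydig cell function and from the germ line, and in developing connective tissue and muscle it is known from growth control and matrix formation.

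RNA-seq was carried out on the gubernaculum, the ligament that draws the testis down, and on the testis of male C57BL/6J mice, with 3 biological replicates in each of 13 groups (39 libraries). WT mice carried the mouse Insl3 gene. INSL3-KI mice were homozygous for the minke whale INSL3 coding sequence placed at the mouse Insl3 locus, with the neomycin cassette removed by mating to Cre females, and INSL3-KO mice lacked INSL3. Testes were taken at postnatal days 8, 23 and 40 (P8, P23 and P40) from WT and KI mice and at P8 and P23 from KO mice, and gubernacula at P8 from all 3 genotypes and at P23 from WT and KI mice. No member of the family was altered by design in any group, and the alleles act in the whole animal, so any cell type of either organ may be affected.

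Levels are given as CPM (library-size normalized counts), scaled by TMM over all libraries of a tissue, in the order of replicates 1, 2 and 3. Differences are log2 fold changes ± SE from edgeR's quasi-likelihood test with p-values adjusted by Benjamini and Hochberg's method across every gene in the fit. A member was called higher or lower at an adjusted p under 0.01 with at least a 2-fold change.

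The 39 libraries held 29861447 to 45260372 counts. The mouse Insl3 transcript was at 20183 to 29799 counts in WT testis at P40 and at 443 to 511 in KI testis, and at 20844 to 25238 in WT and 0 to 5 in KO testis at P23. At P8 it was at 2722 to 3524 counts in WT testis and 15 to 33 in KI, but the 3 P8 testis libraries labelled KO still held 613 to 906. In P8 gubernaculum it was at 25 to 87 counts in WT and at 0 in KI and KO, but at P23 the gubernaculum libraries labelled KI held 12, 28 and 0 counts in replicates 1, 2 and 3, against 9 to 27 in WT. Several libraries stood apart in markers of cell types. The 6 elongating spermatid markers summed to 13121 to 15390.1 FPKM in the testis libraries labelled WT at P23, above the 9466 to 10843 FPKM of WT testis at P40, and to 38.0 to 667 FPKM in KI testis at P23. Among the KI testes, replicate 1 at P40 held more spermatocyte markers than replicates 2 and 3 (1295, 249 and 237 FPKM), replicate 3 at P23 more Sertoli markers (589.7, 445 and 1259.8 FPKM) and replicate 2 at P8 more spermatocyte markers (287, 920.1 and 232 FPKM), and WT testis replicate 3 at P8 held more fibroblast markers (1551, 2425 and 4504 FPKM). The gubernaculum libraries are described with their results. Each group entirely from the second table (all KO groups and WT testis at P23) was compared with groups of the first table only as stated, because the 2 tables used different gene models for some members.

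More members were called between KI and WT in P40 testis than at other ages or in gubernaculum, at a share near that of all genes. Of 41 members tested, 16 were called higher and 5 lower in KI, or 51.2% against 47.7% of all genes tested. By direction, 25.6% of all genes were called higher and 22.1% lower. Without a fold minimum, 36 members had an adjusted p under 0.05, against 77% of all genes. The median log2 fold change was 1.02 over the members and 0.09 over all genes. The rises lay in TGF-beta ligands, Bmp2, Bmp4, receptors, SMAD3, SMAD4, SMAD7, antagonists and Ltbp1, and the falls in Bmp3, Bmp8a, Gdf9, Smad9 and Smad6.

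KI testis at P40 had lost nearly all elongating spermatid signal, with marker sums of 2.85 to 44.8 FPKM against 9466 to 10843 in WT. Sertoli markers summed to 1163 to 1869.5 FPKM in KI and 201 to 249 in WT, with all 9 called higher, and all 5 macrophage markers were called higher. Fibroblast markers summed to 391 to 675 FPKM in KI and 54.7 to 126 in WT, with 3 of 6 called higher, and Leydig markers to 574 to 707 and 269 to 339, with 3 of 5 called higher. The part of these cell types in the members' values was not tested. In bulk tissue, fewer cells of a type and less RNA per cell cannot be told apart. The median of all genes, 0.09, became -2.03 when libraries were scaled by the 9 Sertoli markers and 0.70 with total counts alone. With total counts alone 26 members were called higher and 4 lower, and with Sertoli scaling 0 were called higher and 21 lower. Of all 16677 genes tested, 6583 were called higher and 2458 lower with total counts alone, and 32 and 11475 with Sertoli scaling. Bmp2, Acvr1, Smad3, Fst and Ltbp1 kept a positive sign under Sertoli scaling without being called, while the other 11 rises turned negative.

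Among the TGF-beta ligands, Tgfb1, the most widely expressed of the 3 and a regulator of immune and matrix genes, stood at 27.9, 27.9 and 32.8 CPM in the WT and 65.2, 88.3 and 83.2 CPM in the KI testes. All 3 KI libraries lay above every WT library, and the log2 fold change was 1.48 ± 0.17 (adjusted p = 6.46e-04, reversed under Sertoli scaling). Tgfb3 stood at 18.6, 17.8 and 25.1 CPM in WT and 67.1, 97.7 and 93.7 CPM in KI, a log2 fold change of 2.13 ± 0.24 (adjusted p = 5.30e-04). Under Sertoli scaling the difference of Tgfb3 was negative but very small. Tgfb2 was at 1.62 ± 0.40, just beyond the adjusted p threshold (0.0105), and was not called. Per length, Tgfb1 had rank 3 of the 45 in WT at 8.86 ± 1.27 FPKM (SD, n = 3) and rank 1 in KI at 37.97 ± 8.27 FPKM.

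The BMPs split. Bmp2, a strong osteogenic ligand, was low in WT at 0.219, 0.435 and 0.168 CPM and stood at 1.26, 1.75 and 0.930 CPM in KI, with log2 fold change 2.31 ± 0.48 and adjusted p = 0.00518. Bmp4, which acts on the germ line from its first specification in the embryo, stood at 1.36, 1.31 and 3.29 CPM in WT and 6.15, 5.81 and 6.43 CPM in KI (1.66 ± 0.40, adjusted p = 0.00967, reversed under Sertoli scaling). WT replicate 3 was the highest WT library for Bmp4 and still lay below all KI libraries. Bmp3, a BMP that opposes osteogenic BMPs, stood at 2.37, 3.08 and 2.85 CPM in WT and was close to undetected in KI, with 2, 0 and 0 counts. The ratio of summed normalized counts, WT over KI, was 166 with a 95% counting interval of 45.4 to 1378 (adjusted p = 4.23e-04 in the fit). Bmp8a, a BMP that male germ cells are known to use, stood at 1.4, 1.23 and 2.28 CPM in WT and 0.105, 0.0751 and 0.196 CPM in KI, all KI libraries below WT (-3.62 ± 0.50, adjusted p = 0.0011). Its paralog Bmp8b was at -2.05 ± 0.53 and was not called (adjusted p = 0.0123). The values of these close copies are uncertain, since reads may be split between them. Bmp7 passed the adjusted p but not the fold threshold, at 0.77 ± 0.17, and Bmp5 and Bmp6 were not called.

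Of the GDFs only Gdf9, best known as an oocyte growth factor, was called. It stood at 20.7, 19.7 and 16.0 CPM in WT and 4.63, 1.33 and 1.69 CPM in KI, with log2 fold change -2.85 ± 0.47 (adjusted p = 0.00219). The highest KI value was that of replicate 1, the KI library with the most spermatocyte markers. Gdf10, at 1.65 ± 0.54, and Gdf5, at -2.64 ± 1.16, were not called (adjusted p = 0.0294 and 0.0763), nor were Gdf11 and Gdf15, the latter with a 95% interval of -1.35 to 0.80 for its log2 fold change.

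**Figure D1:**
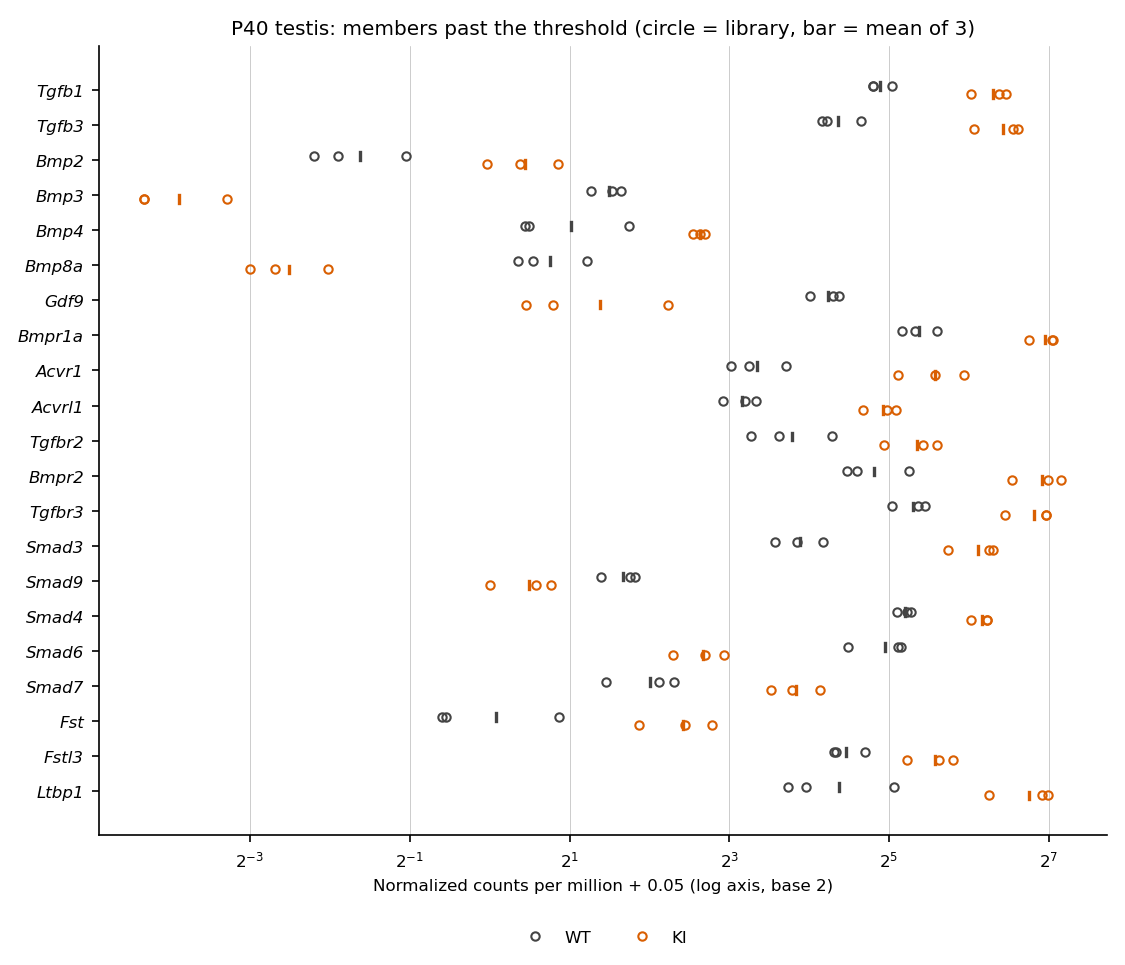
CPM plus 0.05 (log axis, base 2) in each of the 3 WT (grey) and 3 KI (orange) testis libraries at P40 for the 21 members past the threshold; circles are libraries and short bars group means. In KI, 16 members lie to the right and 5 (Bmp3, Bmp8a, Gdf9, Smad9 and Smad6) to the left. Of the 16, 11 turn negative when the libraries are scaled by Sertoli markers, Bmpr2 and Tgfb3 only barely.

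Of 12 receptors and co-receptors, 6 were called higher and 0 lower. Among the type I receptors, Bmpr1a, the main BMP type I receptor of many tissues, stood at 35.7, 40.1 and 48.3 CPM in WT and 108, 132 and 132 CPM in KI (1.64 ± 0.18, adjusted p = 5.19e-04, reversed under Sertoli scaling). Acvr1, which serves BMPs, stood at 8.07, 9.45 and 13.0 CPM in WT and 34.5, 47.5 and 61.4 CPM in KI, and the 4.89-fold difference (2.29 ± 0.30, adjusted p = 9.03e-04) was the largest of any receptor. Acvrl1, the ALK1 receptor best known from endothelium, stood at 9.12, 7.55 and 10.1 CPM in WT and 25.4, 33.8 and 31.5 CPM in KI (1.82 ± 0.19, adjusted p = 4.67e-04, reversed under Sertoli scaling), and the 5 endothelial markers summed to 6.62 to 8.89 FPKM in WT and 14.7 to 22.2 in KI, with 1 of the 5 called higher. Both values that follow belong to type I receptors of the SMAD2 and SMAD3 arm that were not called. Tgfbr1, the first member by FPKM in WT testis at 11.27 ± 0.35 FPKM (SD, n = 3), had a log2 fold change of 0.11 ± 0.10 with a 95% interval of -0.12 to 0.35. Acvr1b had -0.05 ± 0.15 and an interval of -0.42 to 0.32, so a 2-fold change lies outside both intervals on this scale.

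Of the type II receptors, Tgfbr2, the TGF-beta binding receptor, stood at 12.3, 9.65 and 19.4 CPM in WT and 30.7, 43.0 and 48.6 CPM in KI (1.62 ± 0.33, adjusted p = 0.00474, reversed under Sertoli scaling). Bmpr2, the BMP type II receptor, stood at 22.2, 24.2 and 37.9 CPM in WT and 93.3, 142 and 127 CPM in KI (2.16 ± 0.29, adjusted p = 9.67e-04), and under Sertoli scaling its difference was near 0 and negative. KI replicate 1 was the lowest of the KI libraries for both. The activin receptors passed the adjusted p without reaching 2-fold and in opposite directions, Acvr2a at -0.62 ± 0.12 and Acvr2b at 0.77 ± 0.16. Tgfbr3 (betaglycan), which presents TGF-beta2 and inhibin to type II receptors, stood at 41.0, 32.8 and 43.8 CPM in WT and 87.2, 124 and 125 CPM in KI (1.57 ± 0.22, adjusted p = 0.00106, reversed under Sertoli scaling).

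Among the SMADs, Smad3 stood at 11.9, 14.4 and 18.0 CPM in WT and 53.4, 78.7 and 76.4 CPM in KI, a 4.89-fold difference (2.29 ± 0.25, adjusted p = 4.95e-04). Smad2, which shares its receptors, was at 0.67 ± 0.13 (adjusted p = 0.0043), short of 2-fold, and at -1.47 under Sertoli scaling. Smad4, the common partner, stood at 37.4, 38.6 and 34.3 CPM in WT and 65.1, 74.9 and 74.8 CPM in KI (1.02 ± 0.12, adjusted p = 6.72e-04, reversed under Sertoli scaling). Of the BMP-arm SMADs, Smad9 stood at 2.59, 3.32 and 3.49 CPM in WT and 1.65, 1.45 and 0.954 CPM in KI (-1.17 ± 0.28, adjusted p = 0.00957), while Smad1 at -0.74 ± 0.21 and Smad5 at 0.38 ± 0.10 were not called. The 2 inhibitory SMADs were called in opposite directions. Smad7, which restrains TGF-beta and BMP receptors, stood at 4.91, 2.69 and 4.30 CPM in WT and 11.4, 17.5 and 13.7 CPM in KI (1.90 ± 0.30, adjusted p = 0.00172, reversed under Sertoli scaling). Smad6, which acts chiefly on BMP signalling, stood at 35.4, 34.4 and 22.4 CPM in WT and 4.87, 7.61 and 6.43 CPM in KI, lower in KI on all 3 scales (-2.22 ± 0.26, adjusted p = 6.29e-04).

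Smad6 was the one member called lower in KI or KO testis at every age, so its promoter is shown (RefSeq, GRCm38.p6, minus strand, chr9:64022030-64022309, 250 bases before the annotated start and 30 after it). The capitals mark the palindromic SMAD-binding element GTCTAGAC, searched on both strands, which spans the start.
Smad6: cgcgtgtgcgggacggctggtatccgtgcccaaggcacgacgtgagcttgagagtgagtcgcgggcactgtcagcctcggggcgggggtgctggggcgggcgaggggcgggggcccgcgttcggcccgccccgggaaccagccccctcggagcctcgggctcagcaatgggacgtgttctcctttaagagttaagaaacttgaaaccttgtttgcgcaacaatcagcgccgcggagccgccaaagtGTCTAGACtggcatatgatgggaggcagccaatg
This element was present in 0.213% of 32851 RefSeq promoter windows of 300 bases (70 windows) and in no other window of a member, of which 39 windows for 31 of the 45 genes were given. A shorter GC-rich SMAD motif, GGCGCC, was present in 11.9% of all windows and in 10 of the 39 member windows, those of Acvr1b, Bmpr1a, Bmpr2, Chrd, Gdf10, Grem1, Smad5, Smad9 and Tgfbr1. A match says only that these letters are present.

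Among antagonists and binding proteins at P40, Fst (follistatin), which neutralizes activin and myostatin, stood at 0.614, 0.633 and 1.78 CPM in WT and 3.61, 6.86 and 5.38 CPM in KI (2.42 ± 0.52, adjusted p = 0.00601). Fstl3, a follistatin-related activin binder, stood at 20.2, 19.8 and 26.0 CPM in WT and 37.5, 55.7 and 49.3 CPM in KI (1.17 ± 0.21, adjusted p = 0.00318, reversed under Sertoli scaling). A large part of the Fstl3 exon sequence (47.3%) lies under the exons of Prss57 on the opposite strand, and the strand used in counting is not given. Ltbp1, which anchors latent TGF-beta in the matrix, stood at 15.5, 13.2 and 33.4 CPM in WT and 76.1, 127 and 121 CPM in KI, the largest rise of the family (2.44 ± 0.44, adjusted p = 0.00297). Ltbp2 at 1.45 ± 0.37 and Chrd, a BMP antagonist, at 0.83 ± 0.25 were not called.

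The full cAMP response element TGACGTCA was present in 1.79% of all windows and in 1 of the 39 member windows. That window belongs to Ltbp1 (RefSeq, GRCm38.p6, plus strand, chr17:75005279-75005558, 250 bases before the start and 30 after). Another window of Ltbp1 lacked the element. Here too a match says only that these letters are present. A link of the element to INSL3 or to the level of Ltbp1 was not tested. The capitals mark the element, which begins 73 bases before the annotated start.
Ltbp1: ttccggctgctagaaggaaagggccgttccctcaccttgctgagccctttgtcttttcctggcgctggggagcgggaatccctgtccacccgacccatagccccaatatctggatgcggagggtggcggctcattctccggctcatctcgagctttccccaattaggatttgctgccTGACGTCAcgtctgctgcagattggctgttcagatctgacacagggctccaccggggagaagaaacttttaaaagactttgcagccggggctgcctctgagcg

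Of the 21 calls at P40, 9 did not hold when each library was left out in turn: Bmp2, Bmp4, Gdf9, Tgfbr2, Smad9, Fst, Fstl3 and Ltbp1, whose adjusted p rose to at most 0.0366, and Smad4, whose log2 fold change fell to as low as 0.98. Without WT replicate 1, 13 members were called, and without KI replicate 1, the library with more spermatocyte markers, 27. Over all genes, 3320 were called higher and 2268 lower of 16999 without WT replicate 1, and 4760 and 5274 of 17023 without KI replicate 1.

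Of 55 other genes of the pathway found in both tables (57 were listed), 45 were tested at P40. Of these, 21 were called higher and 5 lower, against 25.6% and 22.1% of all genes. The median log2 fold change of the 45 was 1.27. The largest differences among ligands were Amh (3.55 ± 0.25) and Inhba (3.22 ± 0.38), a Sertoli hormone of the fetal and immature testis and the activin A subunit. Among antagonists, Sost (-6.05 ± 0.86) and Sostdc1 (-5.77 ± 0.82) were lower. The BMP target genes Id1 (2.79 ± 0.28) and Id3 (3.09 ± 0.29) were higher and Atoh8 (-3.41 ± 0.42) lower. Each of these 7 kept its sign under Sertoli scaling, although the counts over the list turned to 2 higher and 18 lower. Sertoli marker sums also differed between KI and WT, and their part in these values was not tested.

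**Figure D2:**
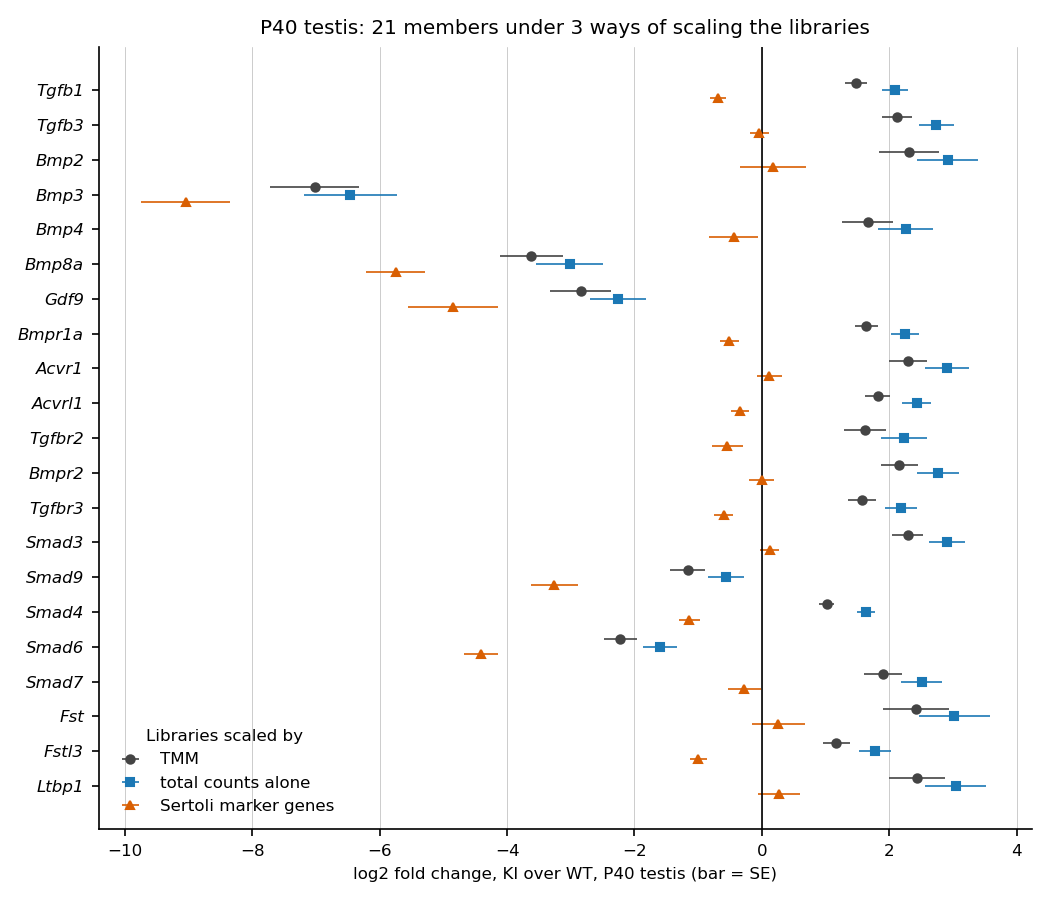
Log2 fold change of KI over WT testis at P40 (x axis; bars are SE) for the 21 members past the threshold, with libraries scaled by TMM (circles), by total counts alone (squares) and by 9 Sertoli marker genes (triangles). The 5 falls stay left of 0 on all 3 scales; of the 16 rises, Bmp2, Acvr1, Smad3, Fst and Ltbp1 stay right of 0 under Sertoli scaling and the others cross to the left.

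KO testis at P23, compared with WT within the second table, had 23 members called higher and 7 lower of 40 tested, against 64.4% of all genes called (31.1% higher, 33.4% lower). Without a fold minimum, 35 members had an adjusted p under 0.05, against 88.4% of all genes. The median log2 fold change was 1.45 over the members and 0.06 over all genes. The libraries labelled WT at P23 are those with elongating spermatid sums above P40 WT, and KO libraries held 3.30 to 5.13 FPKM. Sertoli markers summed to 1859.9 to 1952 FPKM in KO and 182 to 195 in WT, fibroblast markers to 809.7 to 827 and 74.7 to 80.7, and Leydig markers to 809 to 836 and 215 to 226. Under Sertoli scaling, which moved the median of all genes to -2.44, 15 of the 30 differences reversed sign, and 1 member was called higher and 20 lower. Of all 16732 genes tested, 122 were called higher and 12564 lower on that scale.

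Fst showed the largest rise, from 1.13, 1.22 and 1.45 CPM in the libraries labelled WT to 13.5, 15.5 and 14.9 CPM in KO (3.59 ± 0.16, adjusted p = 8.36e-09). Acvr1 stood at 9.67, 9.66 and 8.85 CPM in WT and 67.7, 66.7 and 68.5 CPM in KO (2.91 ± 0.07, adjusted p = 6.97e-11). Ltbp1 stood at 16.2, 18.4 and 17.3 CPM in WT and 119, 111 and 119.8 CPM in KO (2.81 ± 0.07, adjusted p = 9.33e-11). In each of these the KO values lay within a narrow band far above WT, and all 3 stayed positive under Sertoli scaling, as did Tgfb3 (2.56), Bmp2 (3.12), Acvrl1 (2.51), Smad3 (2.77) and Smad7 (2.54). The 15 others called higher on the TMM scale, which included all of Tgfb1, Tgfb2, Bmp4, Bmp6, Gdf10, Bmpr1a, Bmpr1b, Acvr1c, Tgfbr2, Bmpr2, Tgfbr3, Smad4, Chrd, Fstl3 and Ltbp2, had log2 fold changes of 1.15 to 2.34 and reversed under Sertoli scaling.

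The members called lower in KO testis at P23 were Bmp3, Bmp8a, Bmp8b, Gdf9, Smad1, Smad9 and Smad6, and all kept their sign under Sertoli scaling. Bmp3 stood at 0.967, 0.775 and 0.831 CPM in WT and had no count in any KO library, which puts it at least 11.6-fold lower at a floor of 3 counts per library (adjusted p = 8.97e-05). Gdf9 stood at 19.2, 17.7 and 19.9 CPM in WT and 1.39, 1.31 and 1.5 CPM in KO (-3.69 ± 0.14, adjusted p = 2.06e-09). Smad6 stood at 35.5, 46.9 and 37.5 CPM in WT and 3.73, 5.27 and 5.34 CPM in KO (-3.00 ± 0.16, adjusted p = 3.74e-08). Each was thus lower in every KO library than in any WT library. Of the 30 calls, 5 (Bmp8b, Gdf10, Acvr1c, Smad1 and Smad9) were lost when 1 library was left out, with 27 to 31 members called. Of 46 other pathway genes tested, 33 were called higher and 7 lower, against 31.1% and 33.4% of all genes. Among them were Sostdc1 (-5.47), Atoh8 (-4.87), Id3 (3.87) and Amh (3.64), which kept their sign under Sertoli scaling. Under that scaling 3 of the list were called higher and 21 lower.

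KI testis at P23 was compared with the same libraries labelled WT across the 2 tables. Of 41 members tested, 6 were called higher and 1 lower, against 20.6% of all genes (8.81% higher, 11.8% lower), with a median log2 fold change of 0.62 over the members and 0.08 over all genes. Without a fold minimum, 24 members had an adjusted p under 0.05, against 50.7% of all genes. Ltbp2, a microfibril-associated protein of the Ltbp family, stood at 10.3, 10.6 and 12.2 CPM in WT and 30.9, 30.5 and 33.5 CPM in KI (1.54 ± 0.14, adjusted p = 8.38e-04). Smad6 stood at 35.5, 46.9 and 37.5 CPM in WT and 7.69, 15 and 6.11 CPM in KI (-2.04 ± 0.35, adjusted p = 0.00496), lower in each KI library. The others were Bmp2 (2.93), Acvrl1 (1.76), Bmpr2 (1.33), Smad3 (1.63) and Acvr2b (1.88), and the gene models behind Acvr2b and Acvrl1 differ in length between the tables. KI replicate 3, with the most Sertoli signal, was the highest library for Tgfb3, Acvr1, Smad3 and Ltbp1. All 7 calls were lost in at least 1 leave-one-out fit: 0 or 1 member was called without any one of the WT libraries or KI replicate 1, 10 without KI replicate 2 and 8 without KI replicate 3. Over all genes, 90 to 103 were called higher and 282 to 313 lower without a WT library, and 318 and 460 without KI replicate 1. The numbers were 1728 and 2239 of 16806 without KI replicate 2, and 1412 and 2661 of 16827 without KI replicate 3. With Sertoli scaling 0 members were called and the 7 kept their sign, while 92 of all 16603 genes were called higher and 1618 lower. Of 45 other pathway genes tested, 18 were called higher and 2 lower (1 and 1 under Sertoli scaling).

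Set directly against KO at P23, KI testis had 3 members called higher and 7 lower of 39 tested, against 38.2% of all genes (25.2% higher, 13% lower). Without a fold minimum, 26 members had an adjusted p under 0.05, against 65.6% of all genes. Under Sertoli scaling, with the median over all genes at 1.35 in place of 0.02, 7 members were called higher and 1 lower. Of all 16379 genes tested, 7259 were called higher and 159 lower on that scale. Fst was lower in KI, at 2.26, 2.13 and 2.31 CPM against 13.5, 15.5 and 14.9 in KO (-2.71 ± 0.19, adjusted p = 1.56e-04), and so was Acvr1, at 10.4, 11.7 and 22.2 against 67.7, 66.7 and 68.5 CPM (-2.20 ± 0.29, adjusted p = 9.87e-04). Gdf9 was higher, at 10.6, 10.9 and 3.72 CPM in KI (2.59 ± 0.45, adjusted p = 0.00261). These 3 kept their sign under Sertoli scaling, as did Acvr1b (1.13) and Acvr2b (1.63), while the lower calls of Bmp4, Bmp6, Tgfbr2, Tgfbr3 and Fstl3 reversed. Spermatocyte markers summed to 1322 to 2265 FPKM in KI and 87.7 to 92.9 in KO, and their part was not tested. Without KI replicate 3, 20 members were called, and without any other single library 2 to 6. Over all genes, 4902 were called higher and 3599 lower without KI replicate 3, and 2923 to 3439 and 723 to 1278 without any other. Of the 10, Fst and Acvr1 alone were called in every leave-one-out fit.

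**Figure D3:**
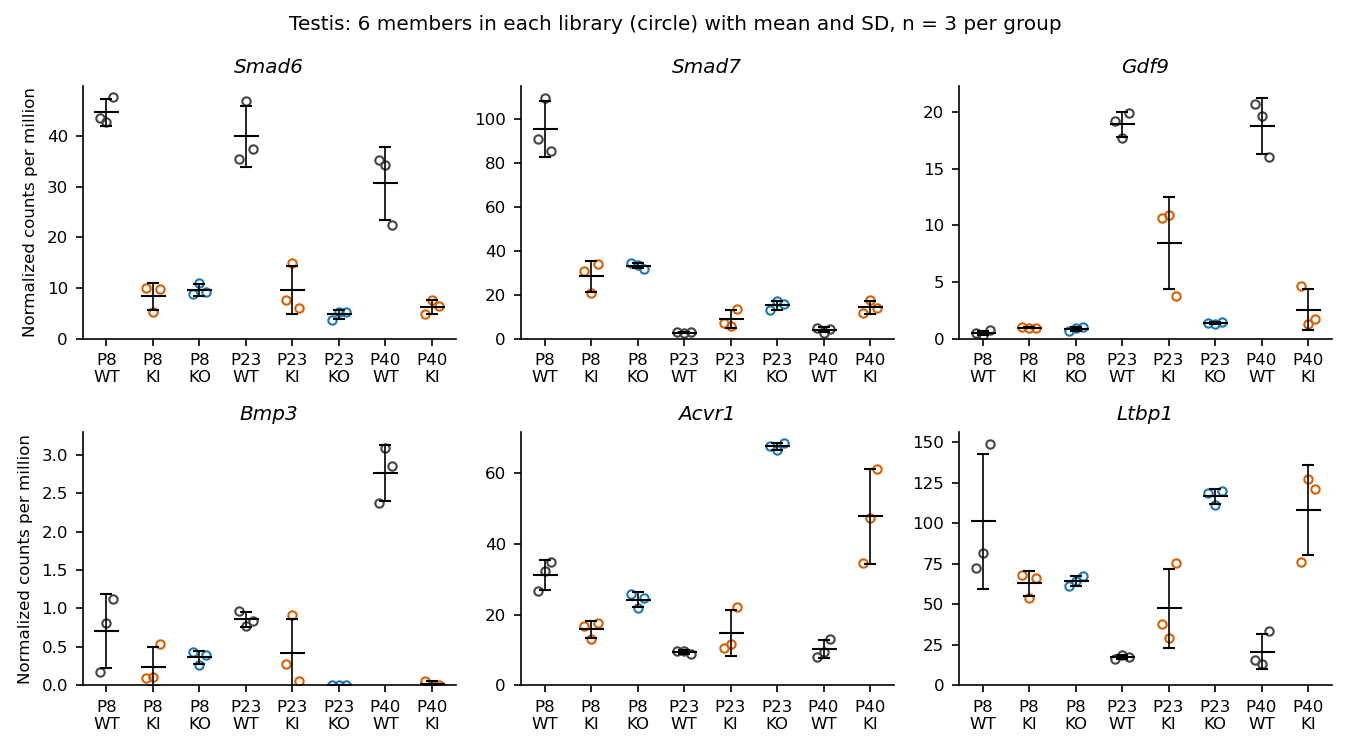
CPM (normalized) in each testis library (circles; WT grey, KI orange, KO blue) with mean and SD (n = 3) for Smad6, Smad7, Gdf9, Bmp3, Acvr1 and Ltbp1 at P8, P23 and P40. KO testis was taken at P8 and P23 only. Smad6 is lower in KI at the 3 ages and in KO at its 2, Smad7 is lower in mutants at P8 and higher in KO at P23 and KI at P40 on this scale (lower in KI at P40 under Sertoli scaling), and Gdf9 is near or under 1 CPM in every P8 group, at 16.0 to 20.7 CPM in WT at P23 and P40, and lower in KO at P23 and KI at P40.

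At P8 every member called in the mutant testes was lower than in WT. In KI, 5 members were called lower and 0 higher of 42 tested, against 6.29% of all genes (3.03% higher, 3.25% lower). In the P8 testis libraries labelled KO, compared across the 2 tables, 8 were called lower and 0 higher of 42, against 13.8% of all genes (5.44% higher, 8.37% lower). The median log2 fold changes were -0.56 in KI and -0.54 in KO, with medians over all genes of 0.00 and -0.02. The 5 called in KI, Bmp6, Gdf15, Acvrl1, Smad6 and Smad7, were also called in the libraries labelled KO, and both comparisons share the WT libraries. At an adjusted p under 0.05 without a fold minimum there were 16 members in KI and 19 in KO, against 36% and 54.4% of all genes.

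Smad7 stood at 90.9, 109.6 and 85.6 CPM in WT, 30.5, 20.5 and 34.0 CPM in KI and 34.2, 33.5 and 31.8 CPM in the libraries labelled KO. The log2 fold changes were -1.68 ± 0.21 in KI and -1.5 ± 0.10 in KO (adjusted p = 0.00462 and 3.76e-05). Smad6 stood at 43.7, 42.8 and 47.8 CPM in WT, 9.95, 5.26 and 9.83 CPM in KI and 8.74, 11 and 9.26 CPM in KO (-2.35 ± 0.27 and -2.18 ± 0.11, adjusted p = 0.00411 and 1.72e-05). Both inhibitory SMADs were thus lower in every mutant library than in any WT library at this age. Acvrl1 stood at 82.5, 86.3 and 96.0 CPM in WT, 34.7, 26.1 and 31.5 CPM in KI and 28.8, 28.5 and 31.1 CPM in KO (-1.45 ± 0.14 and -1.56 ± 0.08, adjusted p = 0.00347 and 1.98e-05).

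Gdf15, a cytokine induced by cell stress, stood at 5.09, 10.3 and 7.99 CPM in WT, 0.747, 0.480 and 0.551 CPM in KI and 0.527, 0.775 and 0.307 CPM in KO. This was the largest difference of the family in P8 testis, at -3.64 ± 0.37 in KI and -3.83 ± 0.41 in KO (adjusted p = 0.00381 and 2.78e-04). Bmp6 stood at 20, 20.8 and 25.8 CPM in WT, 7.45, 6.19 and 7.71 CPM in KI and 7.75, 6.33 and 6.66 CPM in KO (-1.58 ± 0.18 and -1.66 ± 0.14), and its gene model is shorter in the second table. In the libraries labelled KO, Gdf6 (-2.21), Tgfbr2 (-1.47) and Tgfbr3 (-1.01) were also called, and each was lost in at least 1 leave-one-out fit, with 12 members called without WT replicate 1 and 5 without KO replicate 2. The gene models of Tgfbr2 and Acvrl1 are also shorter in the second table. Endothelial markers summed to 52.2 to 84.7 FPKM in WT, 22.2 to 37.6 in KI and 28.2 to 29.4 in KO, spermatocyte markers to 19.6 to 45.8, 232 to 920.1 and 315 to 323. Fibroblast markers summed to 1551 to 4504 FPKM in WT, 764 to 1276 in KI and 1265 to 1307 in KO, and Leydig markers to 254 to 292, 95.8 to 120.4 and 236 to 248. Endothelial, fibroblast and Leydig sums were thus below WT in every mutant library, and the part of these markers in the values was not tested.

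The KI calls at P8 rested on the full set of libraries. Without WT replicate 2 or 3, or KI replicate 1 or 3, 0 members were called and the adjusted p of the 5 rose to at most 0.0337, with log2 fold changes between -1.37 and -3.84. Over all genes, 0 were called higher and 0 lower of 15985 without WT replicate 2. The numbers were 0 and 1 of 15915 without WT replicate 3, and 0 and 1 of 16026 without KI replicate 1. Without KI replicate 2, the library with more spermatocyte markers, 5 members were called, and over all genes 438 higher and 459 lower of 15966. Under Sertoli scaling, which leaves the median of all genes at 0.20 in KI and -0.14 in KO, all 5 and all 8 falls kept their sign. Between KI and the libraries labelled KO, 1 member of 42 was called, against 3.92% of all genes (2.76% higher, 1.16% lower), and 10 against 32.6% at an adjusted p under 0.05 alone. It was Acvr2b (1.10 ± 0.15, adjusted p = 0.00286), whose gene model is shorter in the second table, and it was lost without KI replicate 1 or any KO library. Of other pathway genes, 11 of 46 were called lower and 0 higher in KI against WT (3.25% and 3.03% of all genes). Among them were Bmper (-2.60), Inhba (-2.34) and Amh (-2.15). In the libraries labelled KO, 13 of 47 were called lower and 0 higher against WT (8.37% and 5.44% of all genes), with Inhba at -5.46. That comparison was across tables, and the gene model of Inhba was not compared between them.

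**Figure D4:**
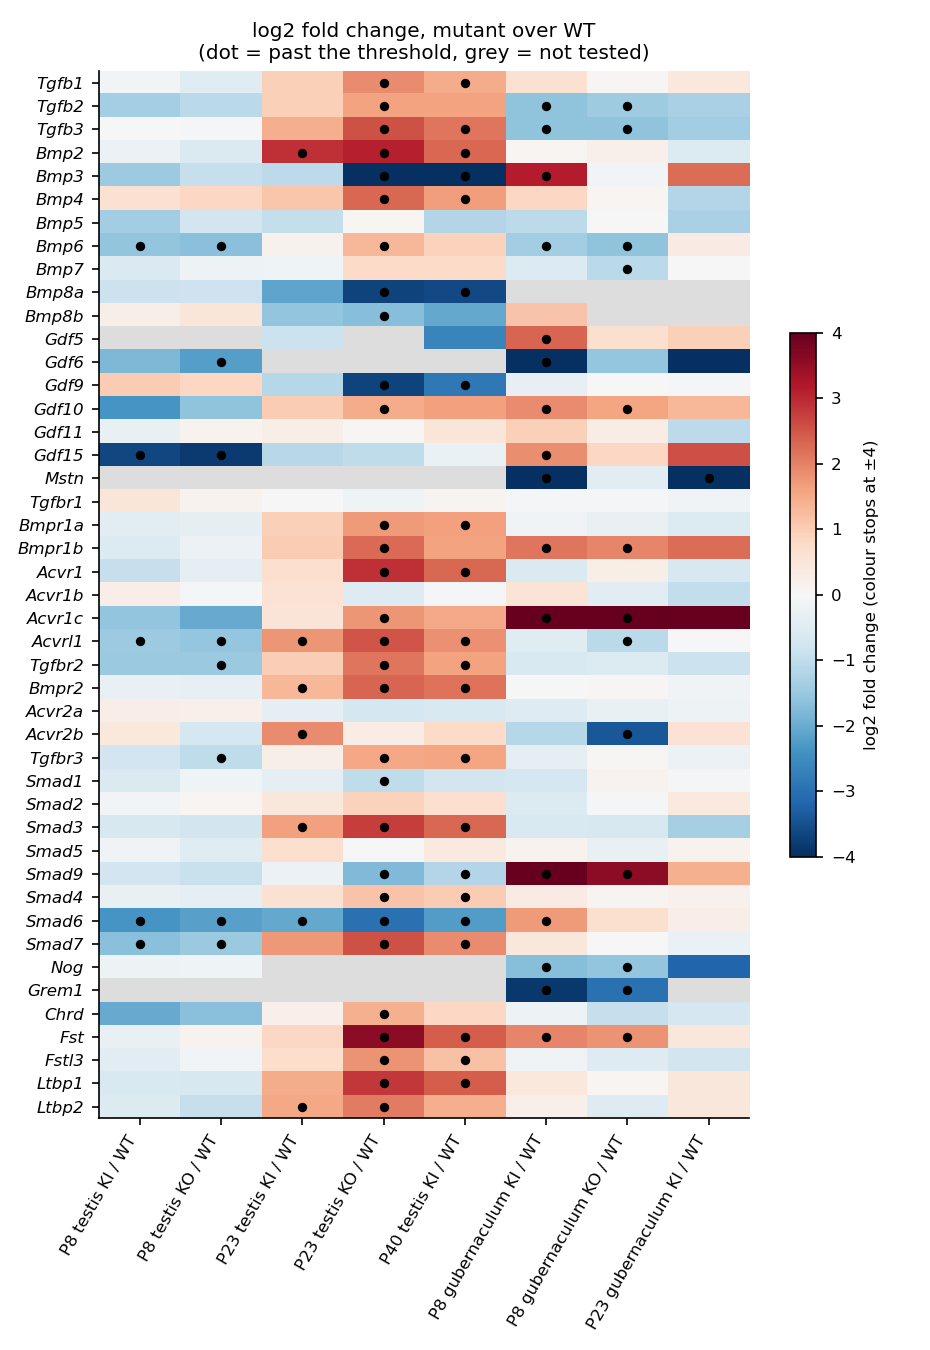
Log2 fold change of each of the 45 members (rows, by role) in the 8 comparisons of a mutant with WT (columns), on the TMM scale, from blue (lower in the mutant) to red (higher), with colour stopped at 4; a dot marks a member past the threshold and grey one not tested. Falls prevail in P8 testis and rises in P23 and P40 testis, where 15 of 30 (KO, P23) and 11 of 21 (KI, P40) called members reverse under Sertoli scaling.

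In P8 gubernaculum, Tgfb2, Tgfb3, Bmp6, Nog and Grem1 were called lower and Gdf10, Acvr1c, Bmpr1b, Smad9 and Fst higher in both mutants, while Mstn was called lower in KI alone of the 2. By size of the log2 fold change, the first 3 were Mstn, Acvr1c and Smad9 in KI and Acvr1c, Smad9 and Acvr2b in KO, where Acvr2b is uncertain because its gene model differs between the tables. In KI, 9 members were called higher and 7 lower of 44 tested, against 24.1% of all genes (14.4% higher, 9.7% lower). In KO, compared across the tables, 5 were called higher and 8 lower of 43, against 30.7% (15.5% higher, 15.2% lower). Irrespective of fold, those with an adjusted p under 0.05 numbered 33 in KI and 25 in KO, against 54.7% and 68.7%. The median log2 fold changes were -0.11 and -0.04, close to the medians of all genes at 0.02 and 0.03. With total counts alone, which moved the median of all genes to 0.34 in KI, 11 members were called higher and 5 lower in KI.

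The cell type markers differed widely between these gubernacula. Skeletal muscle markers summed to 13846 to 14528 FPKM in WT, 539 to 971 in KI and 3876 to 4126 in KO. White adipocyte markers summed to 85.8 to 95.4, 1023 to 1279 and 1978 to 2268 FPKM, and smooth muscle markers to 1049.6 to 1257, 6729 to 7964 and 2999.7 to 3207. Epididymis markers summed to 0.283 to 0.392 FPKM in WT, where Lcn5, Lcn8, Cst11 and Spag11b had no count, 493 to 1226 in KI and 673 to 746 in KO. Fibroblast markers summed to 7226 to 7509.7 FPKM in WT, 3882 to 5859 in KI and 5922 to 6361 in KO. All these sums differed from WT in both mutants, and their part in the values that follow was not tested.

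Mstn (myostatin), the muscle-made inhibitor of muscle growth, stood at 93.1, 109.6 and 98.6 CPM in WT and 69.2, 70.3 and 80.9 CPM in KO. In KI it had 2, 2 and 3 counts, a ratio of WT over KI of 1570 with a 95% counting interval of 762 to 3907 (adjusted p = 8.01e-08 in the fit). In KO the difference was short of 2-fold (-0.45 ± 0.10, adjusted p = 0.00458), and KI against KO gave a ratio of KO over KI of 1149 (558 to 2859, adjusted p = 4.27e-07). In WT, Mstn had rank 4 of the 45 by FPKM, at 31.86 ± 2.76 FPKM (SD, n = 3). Its promoter is shown as that of the member with the largest difference (RefSeq, GRCm38.p6, plus strand, chr1:53061390-53061669, 250 bases before the start and 30 after). The capitals mark 4 E-boxes (CANNTG), the letters that myogenic factors bind.
Mstn: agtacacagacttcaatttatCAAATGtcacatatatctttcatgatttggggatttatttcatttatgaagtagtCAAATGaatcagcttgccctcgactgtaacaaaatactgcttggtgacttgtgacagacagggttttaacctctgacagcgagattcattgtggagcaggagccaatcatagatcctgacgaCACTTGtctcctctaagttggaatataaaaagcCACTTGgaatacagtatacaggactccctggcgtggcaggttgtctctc
E-boxes were present in 72.3% of all windows and in 23 of the 39 member windows.

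At P23 the gubernaculum comparison gave 1 called member, Mstn again, of 42 tested, against 2.57% of all genes (0.212% higher, 2.35% lower). Irrespective of fold, 7 members against 13.4% had an adjusted p under 0.05. Mstn stood at 629.9, 362 and 272 CPM in WT and had 2, 0 and 0 counts in KI, a ratio of WT over KI of 23125 with a 95% counting interval of 6401 to 190956 (adjusted p = 0.00171 in the fit). Without WT replicate 2 or KI replicate 1 the adjusted p was 0.0121 and 0.013. Skeletal muscle markers summed to 26228 to 38441 FPKM in WT and 8.22 to 597 in KI. The 3 KI libraries were very unlike one another: epididymis markers summed to 1538, 1.4 and 5415 FPKM and adipocyte markers to 9295, 15749.5 and 646 FPKM, and WT replicate 3 held 630 FPKM of epididymis markers where the other WT libraries held under 1.

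Several members followed that split among the P23 KI gubernacula. Bmp3 stood at 169, 3.57 and 60.5 CPM and Bmpr1b at 37.8, 4.44 and 108 CPM in KI replicates 1, 2 and 3, with replicate 2, the library without epididymis signal, lowest in both. Acvr1c stood at 97.4, 179 and 4.97 CPM, highest in replicate 2, the library with the most adipocyte signal, against 0.277, 0.189 and 0.0941 CPM in WT. The spread left Acvr1c at 8.97 ± 1.55 and an adjusted p of 0.0213, and Nog at -3.17 ± 0.52 with 0.0187. Neither was called, nor was Gdf6 (-9.26 ± 1.75, adjusted p = 0.0259), which differed widely among the WT libraries at 69.5, 17.0 and 4.74 CPM.

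Acvr1c and Smad9 were low in WT gubernaculum at P8 and high in both mutants. Acvr1c, the ALK7 receptor known from adipose tissue, stood at 0.189, 0 and 0.348 CPM in WT, 18.9, 23.8 and 30.1 CPM in KI and 25.6, 31.9 and 33.4 CPM in KO (7.11 ± 0.56 and 7.39 ± 0.55, adjusted p = 2.27e-05 and 2.78e-05). Smad9 stood at 0.726, 1.74 and 1.74 CPM in WT, 48.8, 57.8 and 49.3 CPM in KI and 16.8, 16.3 and 17.1 CPM in KO (5.25 ± 0.29 and 3.57 ± 0.32, adjusted p = 3.74e-06 and 6.81e-05). Smad9 also differed between KI and KO, by 1.64 ± 0.09 (adjusted p = 1.37e-05). Its 2 partners in the BMP arm were not called: Smad1 was at -0.70 ± 0.10 and Smad5 at 0.13 ± 0.11 in KI.

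Both mutants shared further differences from the same WT libraries. Tgfb2 stood at 175, 181 and 148 CPM in WT, 51.1, 51.9 and 58.3 CPM in KI and 67.5, 59.9 and 62.7 CPM in KO, and Tgfb3, first of the 45 by FPKM in WT at 43.3 ± 4.03 (SD, n = 3), at 152, 178 and 183, 66.6, 42.1 and 52.9 and 52.2, 56.7 and 59.2 CPM. The log2 fold changes were -1.60 ± 0.11 and -1.41 ± 0.10 for Tgfb2 and -1.62 ± 0.17 and -1.61 ± 0.10 for Tgfb3 (adjusted p at most 9.80e-05). Among BMP antagonists, Nog stood at 25.1, 20.6 and 24.8 CPM in WT, 10, 3.15 and 7.73 CPM in KI and 7.93, 7.62 and 8.15 CPM in KO, and Grem1 at 1.55, 1.47 and 1.64, 0.127, 0.169 and 0 and 0.365, 0.134 and 0.0913 CPM. Both were called lower in both mutants, Nog at -1.71 ± 0.36 and -1.57 ± 0.12 and Grem1 at -3.87 ± 0.76 and -2.99 ± 0.54. Fst, by contrast, was called higher, at 85.9, 49.7 and 44.2 CPM in WT, 261, 169.7 and 249 CPM in KI and 210.0, 206 and 212 CPM in KO (1.96 ± 0.27 and 1.80 ± 0.24). It was first of the 45 by FPKM in KI gubernaculum, at 97.55 ± 21.65 (SD, n = 3).

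Bmpr1b, a BMP type I receptor known from cartilage and reproductive tract, stood at 11, 12.5 and 11.9 CPM in WT, 47.0, 56.9 and 48.6 CPM in KI and 45.3, 44.0 and 47.3 CPM in KO (2.15 ± 0.13 and 1.95 ± 0.09, adjusted p = 4.97e-06 and 3.35e-06). Gdf10 was called higher in both (1.89 and 1.56) and Bmp6 lower in both (-1.39 and -1.60). In KO, Bmp7 (-1.09), Acvrl1 (-1.08) and Acvr2b (-3.40) were called lower too. The gene models of Gdf10, Bmp6 and Acvrl1 are shorter in the second table, which holds KO. Acvr2b was lower in the second table's libraries in each comparison across tables, and its implied transcript length was 2844 bases in the larger table and 1812 bases in the one that holds KO, so its KO values are uncertain.

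Bmp3, Gdf5 and Smad6 were called between KI and KO gubernaculum at P8 and, against WT, in KI. Bmp3 stood at 103, 113 and 77.9 CPM in KI against 10.1, 10.3 and 13.9 in WT and 10.2, 11.4 and 9.95 in KO, with log2 fold changes of 3.14 ± 0.19 against WT and 3.23 ± 0.15 against KO (adjusted p = 6.02e-06 and 9.44e-06). Its implied transcript length also differed between the tables, 6633 against 3200 bases. Gdf5, a joint-forming ligand, stood at 14.0, 10 and 11.5 CPM in KI, 3.28, 2.19 and 1.74 in WT and 3.94, 3.23 and 4.04 in KO (2.34 ± 0.27 against WT, 1.67 ± 0.18 against KO). Of its exon sequence, 40.3% lies under exons of Gm15557 on the opposite strand. Smad6 stood at 34.6, 37.1 and 36.8 CPM in KI, 12.3, 8.86 and 12.9 in WT and 16.3, 19.4 and 17.7 in KO (1.71 ± 0.16 against WT, 1.03 ± 0.09 against KO). Smad6 was thus higher in KI than in WT gubernaculum at the age at which it was lower in KI than in WT testis. Bmp5, not called against WT, was lower in KI than in KO (-1.06 ± 0.22). In all, 5 members were called higher and 2 lower of 43 in KI against KO, against 22.5% of all genes (11.9% higher, 10.5% lower), and 26 members against 64.6% passed an adjusted p under 0.05 alone. Gdf6 and Gdf15 were called against WT in KI, at -4.67 ± 1.0 and 1.86 ± 0.38.

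**Figure D5:**
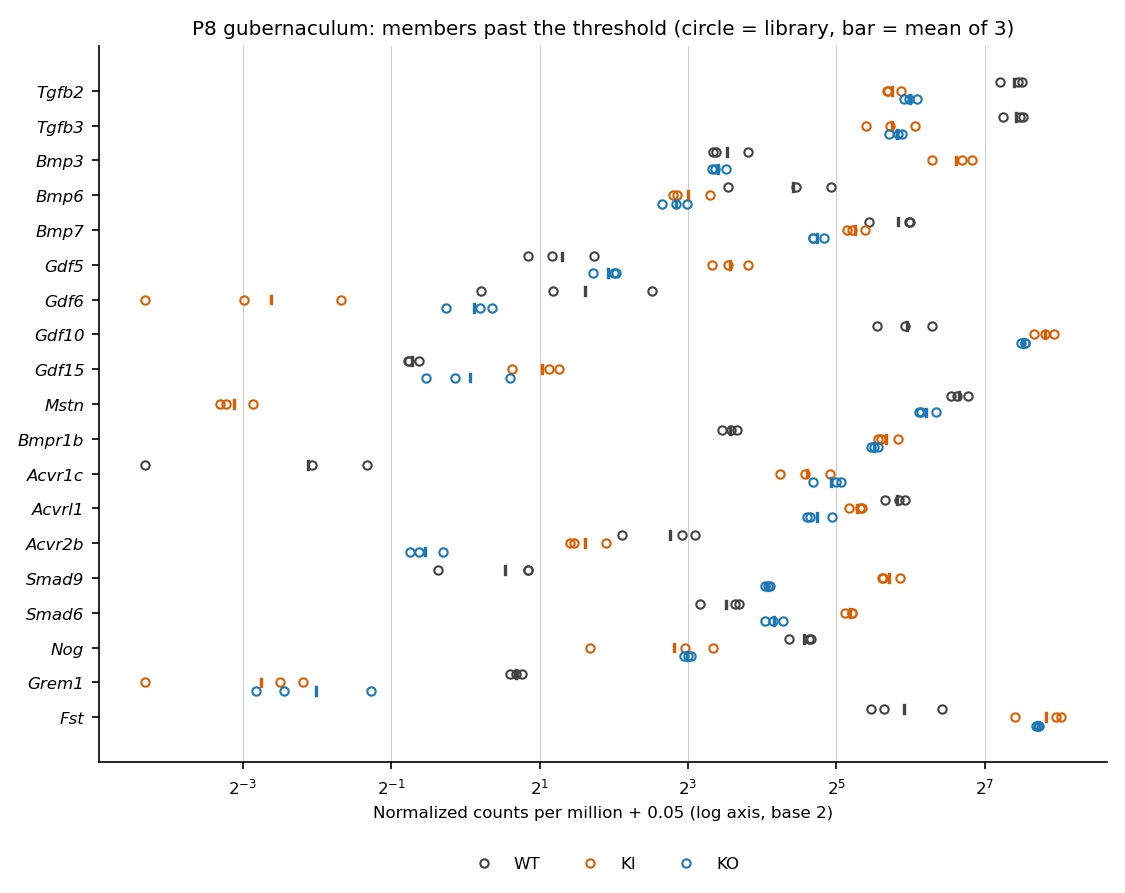
CPM plus 0.05 (log axis, base 2) in each P8 gubernaculum library for the 19 members past the threshold in KI or KO against WT; circles are libraries (WT grey, KI orange, KO blue) and short bars group means. Mstn is near 0 in KI only, Acvr1c and Smad9 are far higher in both mutants than in WT, and Bmp3 and Gdf5 are high in KI only.

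Leaving out 1 library at a time left 11 to 17 members called in KI and 11 to 14 in KO. Lost in at least 1 such fit were Bmp6, Gdf6, Gdf15, Nog and Grem1 in KI, with adjusted p of at most 0.0365, and Bmp6, Bmp7 and Grem1 in KO, with adjusted p of at most 0.0226. Of 47 other pathway genes tested in each, 7 were called higher and 6 lower in KI, against 14.4% and 9.7% of all genes. In KO, 9 were called higher and 14 lower, against 15.5% and 15.2%. With total counts alone the numbers were 10 and 5 in KI and 10 and 8 in KO. The targets of BMP signalling Id2 (5.0 in KI, 5.03 in KO) and Id4 (4.16 and 2.60) were higher in both, while Thbs1 (-2.92 and -2.0), known to activate latent TGF-beta, was lower in both. Inhba was called in KO against WT (-6.98) and in KI against KO (6.80), both across tables. It was also lower in the second table's libraries in P8 testis (-5.46 in KO against WT, 3.10 in KI against KO). The same held in P23 testis (5.84 in KI against WT). Its gene model was not compared between the tables, so these values are uncertain.

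In WT testis most members were lower at the later age on the TMM scale, and fewer were under Sertoli scaling. Between P8 and P40, 28 of 43 members tested were called lower and 1 higher, against 59.7% of all genes (31.9% higher, 27.8% lower), and the median log2 fold change was -1.67 against -0.03 over all genes. Without a fold minimum, 37 members had an adjusted p under 0.05, against 82.3% of all genes. Under Sertoli scaling, which moved that median to 2.03, 12 were called higher and 5 lower, and 10 of the 29 reversed. Smad7 (-4.64) and Gdf10 (-5.40) were called lower under both. Gdf9 was the one member called higher, from 0.449, 0.316 and 0.722 CPM at P8 to 20.7, 19.7 and 16.0 CPM at P40 (5.18 ± 0.32, adjusted p = 2.47e-06), and it kept that sign under Sertoli scaling. Smad6 was not called, at -0.60 ± 0.17 (adjusted p = 0.012), and stood at 1.46 under Sertoli scaling. Of the 29 calls, 7 (Bmp5, Gdf6, Gdf11, Acvr2b, Smad5, Nog and Chrd) were lost in at least 1 leave-one-out fit, with 23 to 31 members called. The elongating spermatid sum was 0.486 to 1.06 FPKM at P8 and 9466 to 10843 FPKM at P40, and its part was not tested.

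In WT gubernaculum 5 of 42 members were called higher at P23 than at P8 and 0 lower, against 10.5% of all genes (6.17% higher, 4.34% lower): Bmp4 (1.66), Gdf11 (1.07), Mstn (2.06), Acvr1b (1.49) and Smad6 (1.17). With total counts alone 4 were called higher and 1 lower, and at an adjusted p under 0.05 alone 19 members passed, against 35.3% of all genes. Each of the 5 was lost in at least 1 leave-one-out fit, and 0 members were called without any one P8 library. Between the WT organs at P8, 15 of 44 members were called higher and 4 lower in gubernaculum than in testis, against 28.4% of all genes (14.1% higher, 14.3% lower), and 12 and 7 with total counts alone, which put the median of all genes at -0.42. At an adjusted p under 0.05 alone 31 members passed, against 60.1%. The ligands Tgfb2 (2.40), Tgfb3 (1.59), Bmp3 (4.12) and Gdf5 (3.71) and the antagonists Nog (5.01), Grem1 (5.05), Chrd (2.41) and Fst (2.90) were higher in gubernaculum, with Mstn at no count in any WT testis library at P8. Gdf15 (-3.69), Smad6 (-1.88), Smad7 (-2.37) and Fstl3 (-2.08) were higher in testis. Bmp2, Bmp4 and Chrd lost the call in at least 1 leave-one-out fit, with 17 to 22 members called. The interaction of genotype with age was called for 24 members in testis, against 45.6% of all genes (23.2% higher, 22.5% lower; 66.9% at an adjusted p under 0.05), and for 1 in gubernaculum, against 0.281% (0.0874% higher, 0.194% lower; 6.82%).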

How the data were processed

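RNA-seq was analysed in 39 libraries of mouse gubernaculum and testis. Per the study's methods, mRNA libraries were sequenced as paired 150 bp reads and the authors aligned the reads to GRCm38 with HISAT2. The counting program, annotation release and strand setting are not given in the sources used here. The deposited files hold raw gene counts, tested here, and FPKM values (fragments scaled by transcript length and library size, as the authors normalized them), used here for levels and marker sums, in 2 tables of 27 and of 12 libraries. Comparisons were made over the 21561 Ensembl genes in both tables, which held 94.163 to 97.859% of each library's counts. Comparisons of groups from different tables are named as across tables, and the implied lengths of 11 members differed between the tables.

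Each pair of groups was fitted with edgeR 4.0.16 (R 4.3.3): TMM scaling, filterByExpr with a minimum count of 10, and quasi-likelihood tests without covariates, with Benjamini-Hochberg adjusted p-values across every gene in the fit. Calls were made at 0.01 for that p, with at least a 2-fold difference in level. The SE was taken from the log2 fold change and the F statistic. Alternatives were DESeq2 1.42.0, no filter on low counts, total counts alone, scaling by 9 Sertoli markers, all groups of a tissue in 1 fit, a replicate block, limma 3.58.1 on log2(FPKM + 1), an adjusted p under 0.05 without a fold minimum and leaving out each library. The 3 samples of a group are biological replicates by their labels. The fits were tested on simulated data. Intervals of fold changes use the t distribution. Intervals of low counts are exact and cover counting error only. Text names all members called, members not called for contrast, and up to 8 called genes of the rest of the pathway with the largest change, of which some are not reported here. Promoters came from RefSeq (GRCm38.p6). The members, lists and tests were chosen with earlier results of these data known.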

Additional observations from a re-analysis of the deposited data

Results flagged for a closer look

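The KI effect in testis (KI minus WT, log2) differed between P40 and P8 for 24 of 43 members by the interaction test in edgeR (adjusted p under 0.01 and at least 2-fold), 22 more positive at P40 and 2 more negative, against 45.6% of all genes tested (23.2% and 22.5%). In the order P40 minus P8, the ligands were Tgfb1 at 1.52, Tgfb2 at 2.89, Tgfb3 at 2.07, Bmp2 at 2.48, Bmp6 at 2.41, Bmp7 at 1.27, Gdf10 at 3.94 and Gdf15 at 3.28, with Bmp3 at -5.69 and Gdf9 at -3.95. Receptors were Bmpr1a at 1.97, Acvr1 at 3.13, Acvrl1 at 3.20, Tgfbr2 at 3.03, Bmpr2 at 2.39 and the co-receptor Tgfbr3 at 2.27. Of the SMADs, Smad3 stood at 2.86, Smad4 at 1.23 and Smad7 at 3.5. Antagonists and binding proteins were Chrd at 2.78, Fst at 2.63, Fstl3 at 1.51, Ltbp1 at 2.98 and Ltbp2 at 1.92. Under Sertoli scaling 1 was called more positive and 14 more negative, and Tgfbr3, Bmp7, Tgfb1, Fstl3, Bmpr1a, Tgfb3, Ltbp2 and Smad4 reversed. Smad7, called lower in KI at P8 and higher at P40 on the TMM scale, kept a positive difference under Sertoli scaling.

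In gubernaculum the KI effect differed between P23 and P8 for Gdf11 alone, at -2.03 (P23 minus P8), against 0.281% of all genes. Without any one P8 or P23 library other than KI replicates 2 and 3 at P23, 0 members were called.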

How the results depend on the processing

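The number of members called is given here where an alternative moved it by more than 1.5 times, with the number in the main test first. With DESeq2, KI against WT testis at P23 went from 7 to 12, KI against KO testis at P23 went from 10 to 16, KI against WT testis at P8 went from 5 to 9, KI against WT gubernaculum at P23 went from 1 to 7, WT gubernaculum at P23 against P8 went from 5 to 9 and the interaction in gubernaculum went from 1 to 4. With Sertoli scaling, KI against WT testis at P23 went from 7 to 0, KI against WT testis at P8 went from 5 to 3, WT testis at P40 against P8 went from 29 to 17 and the interaction in testis went from 24 to 15. With an adjusted p under 0.05 without a fold minimum, KI against WT testis at P40 went from 21 to 36, KI against WT testis at P23 went from 7 to 24, KI against KO testis at P23 went from 10 to 26, KI against WT testis at P8 went from 5 to 16, KO against WT testis at P8 went from 8 to 19, KI against KO testis at P8 went from 1 to 10, KI against WT gubernaculum at P8 went from 16 to 33, KO against WT gubernaculum at P8 went from 13 to 25, KI against KO gubernaculum at P8 went from 7 to 26, KI against WT gubernaculum at P23 went from 1 to 7, WT gubernaculum at P23 against P8 went from 5 to 19, WT gubernaculum against testis at P8 went from 19 to 31 and the interaction in gubernaculum went from 1 to 4. With all groups of the tissue in 1 fit, KI against WT testis at P23 went from 7 to 11, KI against KO testis at P23 went from 10 to 16, KI against WT testis at P8 went from 5 to 9, KI against WT gubernaculum at P8 went from 16 to 10, KO against WT gubernaculum at P8 went from 13 to 8, KI against KO gubernaculum at P8 went from 7 to 4 and KI against WT gubernaculum at P23 went from 1 to 7. With library size alone, KI against WT testis at P23 went from 7 to 19 and the interaction in gubernaculum went from 1 to 0. With limma on log2(FPKM + 1), KI against WT testis at P23 went from 7 to 11, KO against WT testis at P8 went from 8 to 4 and WT gubernaculum at P23 against P8 went from 5 to 3. With no filter on low counts, the interaction in gubernaculum went from 1 to 0. With replicate block, KI against WT testis at P23 went from 7 to 2, KI against WT testis at P8 went from 5 to 0, KI against KO testis at P8 went from 1 to 0, KI against WT gubernaculum at P23 went from 1 to 0, WT gubernaculum at P23 against P8 went from 5 to 0 and the interaction in gubernaculum went from 1 to 0. Over all genes, KI against WT testis at P23 had 1462 called higher and 1966 lower of 16603 in the main test. With DESeq2 the numbers were 2073 and 3088 of 19292. They were 92 and 1618 with Sertoli scaling, 3607 and 1450 with library size alone and 511 and 1087 with replicate block. At P8, KI against WT testis had 476 and 511 of 15702 in the main test and 5 and 1 with replicate block. Leaving out 1 library at a time gave 13 to 27 for KI against WT testis at P40, 0 to 10 for KI against WT testis at P23, 27 to 31 for KO against WT testis at P23, 2 to 20 for KI against KO testis at P23, 0 to 6 for KI against WT testis at P8, 5 to 12 for KO against WT testis at P8, 0 to 1 for KI against KO testis at P8, 11 to 17 for KI against WT gubernaculum at P8, 11 to 14 for KO against WT gubernaculum at P8, 5 to 8 for KI against KO gubernaculum at P8, 0 to 2 for KI against WT gubernaculum at P23, 23 to 31 for WT testis at P40 against P8, 0 to 6 for WT gubernaculum at P23 against P8, 17 to 22 for WT gubernaculum against testis at P8, 17 to 24 for the interaction in testis and 0 to 2 for the interaction in gubernaculum members called.

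Under Sertoli scaling 49 of the called differences reversed, the only alternative to do so. For KI against WT testis at P40 these were Tgfbr3 (-0.60), Bmpr2 (-0.0012), Tgfb1 (-0.69), Fstl3 (-1.0), Bmpr1a (-0.51), Bmp4 (-0.44), Tgfb3 (-0.039), Tgfbr2 (-0.55), Smad7 (-0.27), Acvrl1 (-0.34) and Smad4 (-1.14). For KO against WT testis at P23 these were Chrd (-1.08), Tgfb2 (-0.89), Tgfbr3 (-0.95), Bmpr2 (-0.16), Tgfb1 (-0.62), Fstl3 (-0.71), Bmpr1a (-0.81), Bmp4 (-0.20), Gdf10 (-1.01), Bmp6 (-1.16), Ltbp2 (-0.42), Bmpr1b (-0.23), Acvr1c (-0.74), Tgfbr2 (-0.35) and Smad4 (-1.35). For KI against KO testis at P23 these were Tgfbr3 (0.016), Fstl3 (0.27), Bmp4 (0.13), Bmp6 (0.18) and Tgfbr2 (0.13). For WT testis at P40 against P8 these were Tgfbr3 (0.48), Gdf11 (0.69), Fstl3 (0.42), Bmp5 (0.23), Smad2 (0.79), Tgfb3 (0.40), Acvr2b (0.77), Smad5 (0.98), Acvr1 (0.35) and Smad4 (0.33). For the interaction in testis these were Tgfbr3 (-0.0038), Bmp7 (-0.95), Tgfb1 (-0.77), Fstl3 (-0.80), Bmpr1a (-0.28), Tgfb3 (-0.15), Ltbp2 (-0.26) and Smad4 (-1.02).

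Same-numbered replicates did not deviate together in every pair in any of 13 comparisons of genotypes or ages (correlations -0.108 to 0.44), and they were not treated as pairs. With 3 libraries per group this cannot show that the numbers carry no pairing. The correlations were taken within a tissue, so whether same-numbered gubernaculum and testis came from the same mouse was not tested. The replicate block left 163 of 197 called differences past the threshold, and the cause of the 34 lost calls was not tested. For the other alternatives the cause of each move was not tested either. Groups of 3 libraries and genes with few reads (Bmp2, Bmp3, Bmp8a, Gdf5, Gdf6, Grem1 and Nog) limit the precision, and levels compared across the 2 tables may carry differences in counting.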
